A study of Oreochromis niloticus with 21 samples.

Results

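Kidney and spleen of Oreochromis niloticus, the Nile tilapia, a tropical freshwater fish, were compared over 6 RNA-seq libraries out of 21. The 3 kidney libraries came from fish held at 28, 18 and 10 °C, and so did the 3 spleen libraries, so that each kidney library was paired with the spleen library of the same temperature. The other 15 libraries hold brain, gill, heart, liver and muscle at the same temperatures and were used for the levels of kidney and spleen genes outside these organs. Per the labels, the fish were 6 months old and stayed at their temperature for 12 h before they were killed, and total RNA was taken from frozen tissue with Trizol. No strain, sex or genotype is given. The labels do not state the number of fish behind a library, whether kidney and spleen came from the same fish, or which region of the kidney was taken. There was 1 library for each tissue and temperature, so the p-values between kidney and spleen measure how alike a difference was at 3 temperatures. Spread between fish cannot be told apart from temperature.

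In bony fishes the kidney holds nephrons, which filter the blood and recover salts, glucose and amino acids, and also the main blood-forming tissue of the adult, which in the anterior (head) kidney takes the place that bone marrow has in mammals. Endocrine cells that make cortisol and catecholamines lie in the head kidney too. The spleen stores and clears red blood cells and traps antigens, holds lymphocytes and macrophages, and has no nephrons. In both organs, blood cells in the vessels add RNA of their own.

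The deposited values are RPKM, reads on a gene scaled by gene length and library depth, for 17098 Ensembl gene IDs. None of the IDs could be paired with a gene symbol, so no role can be given for any gene, the marker genes of nephrons, blood cells or stroma were not examined, and the tissue labels were not checked against markers. The values resolve into whole reads, which gave 905142, 557584 and 3041530 reads on genes in kidney at 28, 18 and 10 °C and 916751, 852622 and 1056700 in spleen. Over all 21 libraries the range was 331738 to 3664592, so these are shallow libraries, with a median of 10 to 40 reads on a detected gene in the 6 libraries. The depth that the RPKM values imply was not the number of reads on genes. Reads on genes were 0.234 to 0.439 of that depth in brain, gill, heart, kidney and spleen. They were 0.531 to 1.425 of it in liver and 0.922 to 1.767 of it in muscle. RPKM in liver and muscle is thus high beside the share of reads, and levels compared across tissues below carry this. Each of the 6 libraries was more like its own tissue than like any other: Spearman's rank correlation across 17094 genes was 0.847 to 0.888 between kidney libraries, 0.852 to 0.905 between spleen libraries and 0.571 to 0.641 between a kidney and a spleen library.

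Kidney and spleen differed in a large part of their genes, with more calls on the kidney side under the filter used. Of 10279 genes with an RPKM of 1 or more in at least 3 of the 6 libraries, 3537 (34.4%) differed on log2(RPKM + 1) at an adjusted p under 0.05 by limma. Of these, 2101 (20.4% of those tested) were higher in kidney and 1436 (14.0%) were higher in spleen. Of the 10279 tested genes, 1011 were called and at least 4-fold higher on this scale in kidney and 388 in spleen. At least 16-fold higher were 230 and 32. These counts were not made apart for genes detected in both organs. The median difference over all tested genes was -0.01. In bulk tissue, fewer cells of a type and less RNA per cell cannot be told apart.

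The filter itself had a part in these counts, since a gene could pass it through 1 organ alone. There were 1109 genes that reached an RPKM of 1 in all 3 kidney libraries and in no spleen library, and 430 with the opposite pattern. Such genes had to differ, and 1065 and 377 of them were called. Among the 5446 genes with an RPKM of 1 or more in all 6 libraries, 563 were called higher in kidney and 537 higher in spleen, which is 20.2% of them in all. With the test itself confined to those 5446 genes, 1145 were called, 573 higher in kidney and 572 higher in spleen. The greater number of kidney calls was thus found among genes low or undetected in 1 of the organs, and the numbers were close to equal among genes detected in both. Quantile normalization moved the median difference to -0.17 and gave 1843 genes higher in kidney and 1885 higher in spleen. Removing a trend with gene length moved it to -0.16 and gave 1906 and 1861.

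**Figure D1:**
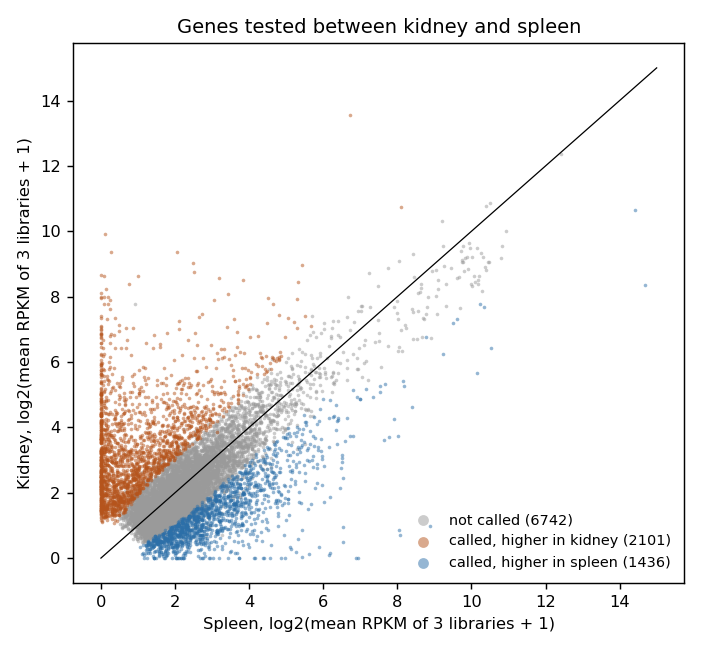
Mean RPKM of each tested gene in kidney (vertical) and spleen (horizontal), both as log2(mean of 3 libraries + 1), with the line of equal level. Points are genes, coloured where limma called them higher in kidney (2101) or in spleen (1436); many kidney calls lie along the left edge, where the spleen level is near 0.

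A stricter list was used to describe the differing genes: called by limma and at least 2-fold apart on log2(RPKM + 1), the same way, at all 3 temperatures. It held 1535 genes higher in kidney (14.9% of those tested) and 656 higher in spleen (6.38%). With a pseudocount of 5 in the 2-fold limit these were 665 and 204. The median difference was 2.47, 2.31 and 2.37 for the 1535 kidney genes at 28, 18 and 10 °C and -1.94, -2.14 and -1.90 for the 656 spleen genes, a likeness that the choice of the lists favours. Without regard to a test, all 3 kidney libraries lay above all 3 spleen libraries for 2648 genes (25.8%), and all 3 spleen libraries lay above all 3 kidney libraries for 2029 (19.7%).

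A smaller group of genes was present in 1 organ and without a single read in the other. For 145 of the 10279 tested genes the RPKM was 5 or more in all 3 kidney libraries while no spleen library held a read. Their median RPKM in kidney was 19.97 and the highest was 405. Only 7 genes showed the opposite, with a median RPKM of 28.2 in spleen and a highest of 123. Depth was unlike, with 905142, 557584 and 3041530 reads in kidney at 28, 18 and 10 °C and 916751, 852622 and 1056700 in spleen. Without regard to level, 330 of the tested genes had no read in spleen and 38 had none in kidney. The part of depth in these counts was not tested. A count of 0 still allows up to 3 reads in a library, which is 0.000284 to 0.000352% of the reads of a spleen library and 9.86e-05 to 0.000538% of a kidney library, counting error only. Of the 145 kidney genes, 65 had a mean RPKM of 1 or more in liver, 28 in gill, 19 in muscle, 15 in brain and 8 in heart, and 48 had it in none of these. Over all tested genes the shares were 69.4% in liver, 78.8% in gill, 71.2% in muscle, 78.4% in brain and 82.2% in heart. In none of these it was 3.77%. Of the 7 spleen genes, 5 had it in liver, 1 in heart and 2 in no other tissue.

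The gene with the largest difference towards kidney was ENSONIG00000014371 (1563 bp as the values imply). Its RPKM was 1229, 927 and 736 in kidney at 28, 18 and 10 °C and 0, 0.264 and 0 in spleen, where it had 1 read in all. The libraries of the organs lay far apart, and kidney stood at 964 ± 248 (SD, n = 3). Against the other tissues it was also mostly a kidney gene: liver at 18 °C reached an RPKM of 125, while no other library outside kidney exceeded 6.69. The difference between kidney and spleen was 9.77 ± 0.40 (SE) on log2(RPKM + 1), with an adjusted p of 2.16e-06 by limma, and pooling the reads of each organ gave a ratio of 11739 with a 95% counting interval of 2107 to 463680.

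ENSONIG00000013623 (641 bp) followed, with an RPKM of 832, 412 and 728 in kidney and 0.612, 0 and 0 in spleen, again from 1 read. The difference was 9.07 ± 0.39 (SE), with an adjusted p of 2.16e-06 by limma, in a gene that also passed the filter through kidney alone. The gene had no read in any gill library, and its highest RPKM in the other 15 libraries was 5.12, in heart at 28 °C. Every kidney library was thus more than an order of magnitude above every library of the other 6 tissues.

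On the spleen side the largest difference was that of ENSONIG00000016419 (988 bp). Its RPKM was 903, 211 and 304 in spleen at 28, 18 and 10 °C and 0.698, 1.01 and 1.23 in kidney, a difference of -7.62 ± 0.50 (SE) with an adjusted p of 6.05e-06 by limma. Spleen was not its main site, since liver held an RPKM of 5979, 2001 and 2887 at the same temperatures. No library of brain, gill, heart or muscle exceeded 15.8.

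ENSONIG00000002124 (1123 bp) had the same distribution. Its RPKM was 509, 136 and 160 in spleen, 0.614, 0.444 and 0.845 in kidney, and 12273, 1193 and 1843 in liver. The difference between kidney and spleen was -7.11 ± 0.45 (SE), with an adjusted p of 5.58e-06 by limma, in a gene that passed the filter through spleen alone. By share of reads it was at 0.967, 0.252 and 0.323% in liver at 28, 18 and 10 °C and at 0.159, 0.0434 and 0.0598% in spleen. By RPKM, the spleen and the liver were highest at 28 °C for both genes, and kidney stayed near an RPKM of 1 at every temperature. By share of reads, ENSONIG00000016419 in liver was highest at 10 °C.

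Since these 2 spleen genes were higher in liver than in spleen, the most abundant liver genes were set beside them. The ratio of ENSONIG00000016419 to ENSONIG00000002124 was 1.77, 1.55 and 1.91 in spleen at 28, 18 and 10 °C and 0.487, 1.68 and 1.57 in liver. Of the 20 most abundant genes at least 4-fold higher in liver than in brain, gill, heart and muscle, 9 had a mean RPKM under 1 in spleen and 5 had 20 or more. These 20 had a mean RPKM of 4676 or more in liver. They include ENSONIG00000002124 itself, at 5103, which was chosen for its high level in spleen. The RPKM of the 20 genes in spleen ran from 0.00289 to 15.1% of that in liver, with a median of 0.0129%. Liver RPKM is high beside the share of reads, which lowers these values. A part of liver tissue in the spleen samples was not tested.

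**Figure D2:**
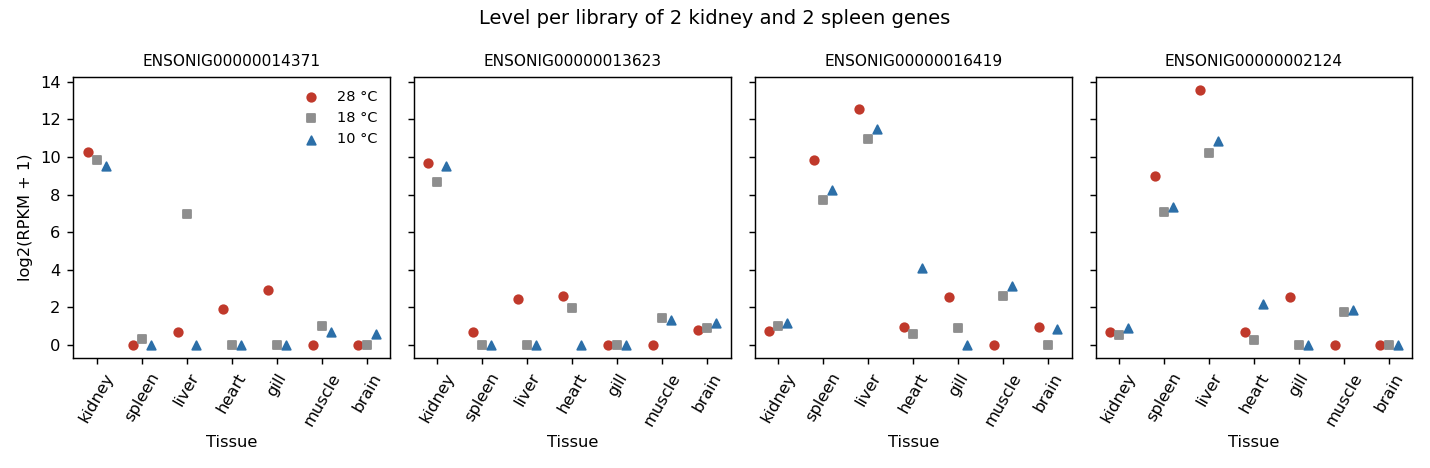
Level of the 4 genes with the largest differences, as log2(RPKM + 1), in each of the 21 libraries, by tissue and temperature. The pair of kidney genes stands high in the 3 kidney libraries and near 0 in spleen, and the pair of spleen genes stands high in spleen and higher still in liver.

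Another kind of difference was in the few genes that fill a library. ENSONIG00000001504 (2387 bp), chosen after its values were seen because it held the most reads in all 3 spleen libraries, had an RPKM of 21923, 24522 and 19268 in spleen and 3869, 586 and 391 in kidney. That was 14.6, 16.6 and 15.3% of the reads in spleen and 2.96, 0.503 and 0.227% in kidney. Spleen was steady at 21904 ± 2627 (SD, n = 3) while in kidney the 28 °C library stood far above the other 2. The difference of -4.50 ± 1.16 (SE) had an adjusted p of 0.0130 by limma, which became 0.0766 with no filter on low genes and 0.234 without the 18 °C pair. The highest RPKM among the other 15 libraries was 3741, in brain at 10 °C.

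In kidney no gene led all 3 libraries. ENSONIG00000020875 (4198 bp) led at 28 °C, ENSONIG00000015186 at 18 °C and ENSONIG00000002856 at 10 °C; the first and the second of these were chosen for this after their values were seen. ENSONIG00000020875 had an RPKM of 2489, 161 and 2609 in kidney and 251, 1514 and 2266 in spleen, so that the sign of the difference changed with the temperature, and limma gave 0.09 with an adjusted p of 0.960. ENSONIG00000015186 had 1708, 2000 and 1412 in kidney and 332, 222 and 259 in spleen. Its libraries did not overlap between the organs, and the difference of 2.66 ± 0.67 (SE) had an adjusted p of 0.0123 by limma, or 0.180 without the 18 °C pair.

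ENSONIG00000002856 (3678 bp) had an RPKM of 130, 369 and 35414 in kidney at 28, 18 and 10 °C and 2.56, 2.47 and 311 in spleen. It took 31.6% of the reads of kidney at 10 °C against 0.154 and 0.489% at 28 and 18 °C. In both organs the 10 °C library stood about 2 orders of magnitude above the other 2, and kidney was higher than spleen at each temperature. The difference was 6.26 ± 0.53 (SE), with an adjusted p of 2.45e-05 by limma. By limma without the temperature block it became 0.0429, and 0.00656 with all 21 libraries in the fit. Other alternatives gave 0.000252 or less. The gene also held the most reads in all 3 muscle and all 3 gill libraries. The 393 genes at least 4-fold higher in muscle than in brain, gill, heart and liver took 32.3% of the reads of kidney at 10 °C with this gene and 0.698% without it, beside 0.920 and 1.06% without it at 28 and 18 °C.

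Seen by reads, the differing genes made up a large part of each organ's RNA. The 1535 kidney genes held 33.5, 35.0 and 54.3% of the reads in kidney at 28, 18 and 10 °C and 2.26, 1.95 and 2.85% in spleen. The 656 spleen genes held 32.8, 37.9 and 29.8% of the reads in spleen and 5.26, 2.06 and 1.48% in kidney. ENSONIG00000001504 alone made up 14.6, 16.6 and 15.3% of the reads in spleen and 2.96, 0.503 and 0.227% in kidney. The high value in kidney at 10 °C included the 31.6% of ENSONIG00000002856.

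Outside the pair, the kidney genes leaned towards liver. Of the other 5 tissues, liver had the highest mean level for 35.2% of the 1535 kidney genes, against 21.3% of all tested genes. Brain had it for 22.3%, gill for 16.9%, heart for 13.0% and muscle for 12.5%, and in all tested genes for 21.4, 23.8, 18.7 and 14.8%. The median level of the kidney genes was 1.34 in liver on log2(RPKM + 1), against 0.76 to 1.05 in brain, gill, heart and muscle, 3.29 in kidney and 0.42 in spleen. Kidney was the highest of all 7 tissues for 65.3% of them, beside 18.6% of all tested genes. All 3 kidney libraries lay above all 15 libraries of the other 5 tissues for 581 (37.9%). The choice of the list for high kidney levels favours both counts, and the second was not made over all tested genes.

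Spleen genes leaned towards gill and heart. Gill had the highest level of the other 5 tissues for 38.6% of the 656 genes and heart for 29.4%, followed by brain with 13.4%, liver with 10.5% and muscle with 8.08%. The median level was 1.95 in gill and 1.88 in heart, against 1.33 in brain, 1.04 in muscle, 0.84 in liver, 3.30 in spleen and 1.05 in kidney. Liver was the lowest of the 7 tissues for 43.0% of the spleen genes and for 28.9% of all tested genes. Spleen was the highest of the 7 for 64.6%, beside 19.8% of all tested genes, and 192 (29.3%) had all 3 spleen libraries above the 15 others. The choice of the list favours both counts here too, and the second was not made over all tested genes.

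As listed, the kidney genes were also the more narrowly distributed. The lists were drawn from unlike calls. Among genes that reached an RPKM of 1 in all 3 libraries of 1 organ alone, 1065 were called for kidney and 377 for spleen. The breadth of genes detected in both organs was not compared apart. A mean RPKM of 1 or more was reached in none of the other 5 tissues by 237 of the kidney genes (15.4%), by 24 of the spleen genes (3.66%) and by 388 of all tested genes (3.77%). In all 5 it was reached by 399 kidney genes (25.99%), 203 spleen genes (30.9%) and 5052 tested genes (49.1%). At least 4-fold above each of the other 5 tissues were 293 kidney genes and 73 spleen genes, a count favoured by the choice of the lists and not made over all tested genes.

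**Figure D3:**
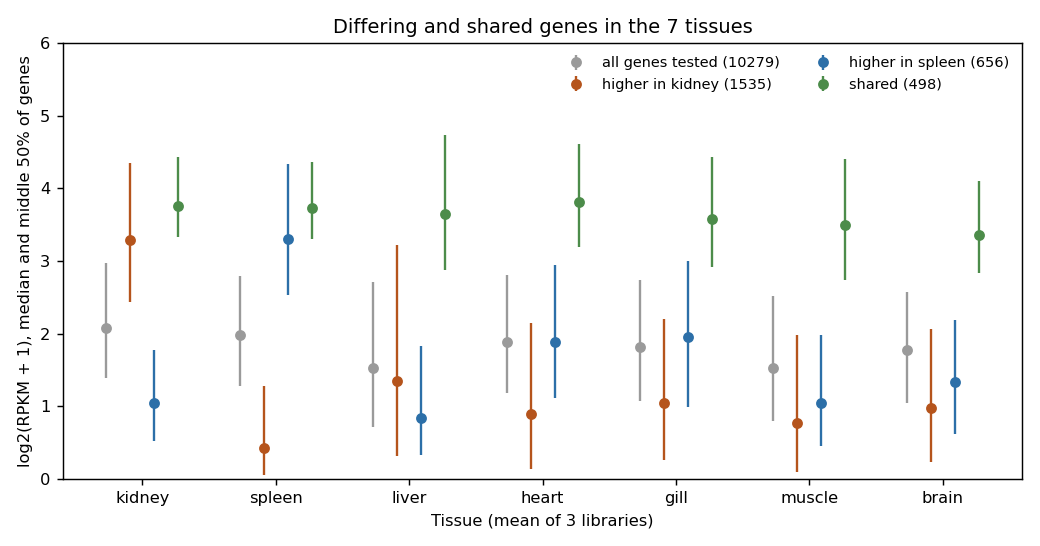
Level in the 7 tissues of the 1535 kidney genes, the 656 spleen genes, the 498 shared genes and all 10279 tested genes. Each level is the mean of log2(RPKM + 1) over 3 libraries. Points are medians over genes and bars span the middle 50% of genes; outside kidney the kidney genes are highest in liver, and outside spleen the spleen genes are highest in gill and heart.

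The same was looked at from the side of the other tissues, with gene sets that used no kidney or spleen value: genes with a mean RPKM of 5 or more in 1 of the 5 tissues and at least 4-fold above the other 4. Of the 604 liver genes, 321 (53.1%) had an RPKM of 1 or more in kidney and 206 (34.1%) had it in spleen, and their median level was 1.18 in kidney and 0.32 in spleen on log2(RPKM + 1). Of the 335 liver genes that passed the filter, 198 (59.1%) were called higher in kidney and 44 (13.1%) higher in spleen, beside 20.4% and 14.0% of all tested genes. Liver genes held 7.76, 7.92 and 4.91% of the reads in kidney at 28, 18 and 10 °C and 2.81, 1.299 and 1.99% in spleen, with no overlap between the organs. Of the 20 most abundant liver genes, 10 had a mean RPKM under 1 in kidney and 4 had 20 or more, and limma called 2 of them higher in kidney and 2 higher in spleen. The spleen calls include ENSONIG00000002124, named above for its difference towards spleen.

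Gill genes were present in kidney somewhat more than in spleen: 114 of 379 (30.1%) had an RPKM of 1 or more in kidney and 87 (23.0%) in spleen, and of 124 tested genes 54 (43.5%) were called higher in kidney and 31 (25%) in spleen. They held 1.02 to 1.63% of the reads in kidney and 0.331 to 0.530% in spleen. Heart genes were the one set with more calls in spleen, with 34 of 116 (29.3%) against 23 (19.8%) in kidney, although 119 and 117 of the 167 had an RPKM of 1 or more in kidney and spleen. Of the 703 brain genes, 90 had an RPKM of 1 or more in kidney and 86 in spleen, with median levels over all 703 of 0.09 and 0.14. Of the 103 tested, 36 (35.0%) were called higher in kidney and 23 (22.3%) in spleen. The median difference of the 103 was 0.26, towards kidney like the calls. Of the 393 muscle genes, 112 reached that RPKM in kidney and 98 in spleen. Of the 105 tested, 25 (23.8%) were called higher in kidney and 12 (11.4%) in spleen, near the 20.4% and 14.0% of all tested genes. Genes enter these counts of calls only through the filter on kidney and spleen, so the numbers over whole sets are the safer description.

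**Figure D4:**
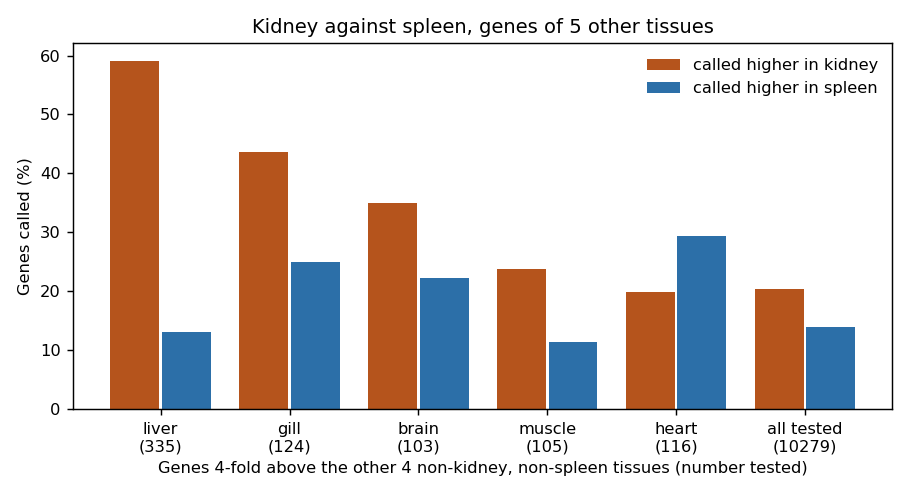
Share of tested genes, in percent, called higher in kidney or in spleen by limma, for genes at least 4-fold higher in 1 of liver, gill, brain, muscle and heart than in the other 4, and for all tested genes. Liver genes stand at 59.1% in kidney and 13.1% in spleen, and heart genes alone have the taller bar for spleen.

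As whole profiles, spleen was nearer to heart than to kidney, while kidney was about as near to heart and liver as to spleen. Spearman's rank correlation of mean levels across 17094 genes was 0.669 between kidney and spleen, while kidney stood at 0.693 with heart and 0.681 with liver, and spleen at 0.800 with heart and 0.677 with gill. Genes are not independent replicates, depth differs between libraries, and the gaps of kidney to heart, liver and spleen are smaller than the spread between single library pairs, 0.562 to 0.660 with heart, 0.528 to 0.637 with liver and 0.571 to 0.641 with spleen. Pearson's r of mean levels put spleen before liver for kidney, with 0.673 for spleen, 0.645 for liver and 0.687 for heart. For spleen the heart pairs, at a Spearman's correlation of 0.680 to 0.765, lay above all pairs with the other tissues.

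Genes shared at a like level were mostly genes detected in all 7 tissues, a breadth that the cut on their level favours. An RPKM of 5 or more in all 6 libraries was reached by 1204 genes, and 498 of these differed by less than 2-fold at all 3 temperatures. They held 6.85 to 10.5% of the reads in the 6 libraries. Of the 498, 487 had a mean RPKM of 1 or more in all 5 other tissues, 9 had it in 4 and 2 in 3. Among all tested genes 5052 (49.1%) had it in all 5, but these were not held to an RPKM of 5. The breadth of the 1204 genes was not examined apart. The median level of the 498 genes was 3.76 in kidney and 3.73 in spleen, and 3.36 to 3.81 in the other tissues. The highest of the 7 tissues was liver for 26.5% of them, gill for 15.9%, muscle for 15.5%, spleen for 13.3%, kidney for 11.6%, heart for 9.24% and brain for 8.03%. Over all tested genes liver was the highest for 14.6%, spleen for 19.8% and kidney for 18.6%.

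The most abundant shared gene, ENSONIG00000017676 (1318 bp), had an RPKM of 946, 643 and 634 in kidney and 1217, 549 and 864 in spleen, and 4311 to 10226 in liver. ENSONIG00000014377 (370 bp) had 842, 566 and 620 in kidney and 1366, 404 and 732 in spleen. Both organs had their highest value at 28 °C for both genes, and the libraries of the organs overlapped.

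Kidney and spleen together were then set against the other 5 tissues, over all 21 libraries. The p-values of this fit rest on spread over temperatures within the tissues and do not measure spread among the 5 other tissues. Of the 10279 genes, 2148 (20.9%) passed limma's adjusted threshold, 1845 (17.9%) higher in the pair and 303 (2.95%) lower. These genes had been kept for their level in kidney and spleen, and the median difference over all of them was 0.24. The direction of the excess depended on that choice: with the filter set over all 21 libraries, 2133 of 15312 genes were higher in the pair and 2804 lower. Median-of-ratios scaling gave 1348 and 428. Of the 1845 genes higher in the pair, 751 were on the list of 1535 kidney genes and 271 on that of 656 spleen genes, so many higher calls were of genes that differed between the organs. Non-overlap was rare: all 6 libraries lay above all 15 others for 10 genes (0.0973%) and below for 2 (0.0195%). Of the 498 shared genes, 47 (9.44%) were higher in the pair and 6 (1.20%) lower, with a median difference of 0.20.

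Of the shared genes higher in the pair, ENSONIG00000012138 (252 bp) had the largest difference. Its RPKM was 76.6, 41.5 and 32.8 in kidney and 77.8, 32.8 and 23.6 in spleen, falling in the same order of temperature in both, and it reached 82.5 in liver, 34.3 in brain and 26.2 in heart but no more than 4.13 in gill and muscle. By share of reads liver lay lower, at 0.00146, 0.00127 and 0.000377% at 28, 18 and 10 °C. Kidney was at 0.00619, 0.00377 and 0.00201% and spleen at 0.00545, 0.00235 and 0.00199%. The difference was 2.78 ± 0.41 (SE), with an adjusted p of 6.06e-05 by limma, on 138 reads in kidney and 91 in spleen. ENSONIG00000011105 (2189 bp) had 7.56, 9.10 and 10.96 in kidney and 11.8, 11.3 and 6.22 in spleen, with heart next at 0.9701 to 11.8. Its difference was 2.15 ± 0.32 (SE), with an adjusted p of 7.76e-05 by limma.

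Of the 6 shared genes lower in the pair, ENSONIG00000017337 (2746 bp) had an RPKM of 22.7, 16.5 and 20.5 in kidney and 21.8, 15.3 and 10.95 in spleen, against 499 to 1198 in muscle. Its difference was -1.71 ± 0.35 (SE), with an adjusted p of 0.00162 by limma, although gill, at 8.11 to 14.0, was not above the pair. ENSONIG00000018588 (3526 bp) was at 7.04 to 13.1 in kidney and 6.67 to 13.1 in spleen, against 76.1 to 122 in liver and 53.3 to 75.8 in gill, a difference of -1.36 ± 0.28 (SE) with an adjusted p of 0.00157 by limma. By RPKM, brain, at 4.86 to 6.04, lay below both organs for this gene, and muscle, at 10.9 to 11.1, lay within their range. By share of reads, muscle lay below both organs, at 0.00221 to 0.00417%, and brain overlapped them, at 0.00633 to 0.00910%. Kidney was at 0.00795 to 0.0167% and spleen at 0.00669 to 0.0129%.

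The gap between the organs was of similar breadth at each temperature. Among genes with an RPKM of 5 or more in at least 1 of the pair, 57.9% of 5031 were at least 2-fold apart at 28 °C, 60.5% of 5009 at 18 °C and 56.0% of 5187 at 10 °C. Kidney was the higher in 1771, 1623 and 1671 of these genes and spleen in 1142, 1407 and 1233. Followed over the temperatures, 3277 of the 10279 tested genes (31.9%) were under 2-fold at all 3, and 4526 (44.0%) were 2-fold apart at 1 or 2 temperatures without a reversal. A further 284 genes (2.76%) were 2-fold higher in kidney at 1 temperature and 2-fold higher in spleen at another.

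The most abundant genes shifted between the pairs. For the 158 genes with a mean RPKM of 100 or more over the 6 libraries, the median difference was -1.16 at 28 °C, -0.54 at 18 °C and 0.24 at 10 °C, so they were lower in kidney at the warmer temperatures and slightly higher at 10 °C. For the 638 genes between 20 and 100 it was 0.46, 0.36 and 0.34, and 214 of them (33.5%) were called higher in kidney. The number of genes that hold 50% of the reads was 438, 529 and 99 in kidney at 28, 18 and 10 °C and 81, 109 and 264 in spleen. In kidney at 10 °C ENSONIG00000002856 alone held 31.6% of the reads. The part of these library profiles in the medians was not tested. By gene length, the median difference was -0.10 in the shortest 25% of genes and 0.03 in the longest 25%.

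No gene passed the test for a different slope with temperature in kidney and spleen: limma called 0 of 10279 (0%), a second fit by limma-voom to reads recovered from the values gave 0 as well, and 708 had an unadjusted p under 0.05, 252 with the higher slope towards the cold in kidney and 456 in spleen. The fit had 2 residual degrees of freedom, and its smallest adjusted p by limma was 0.668. Its p-values set a slope difference against departures from straight lines over the temperatures. Over the alternatives the smallest adjusted p ranged from 0.0911, with an RPKM of 1 or more needed in all 6 libraries, to 0.999. The gene of smallest p towards kidney was ENSONIG00000018980 (1336 bp), with an RPKM of 39.6, 7.41 and 2.97 in spleen at 28, 18 and 10 °C and 0.258, 0.373 and 1.83 in kidney. Spleen was thus lowest and kidney highest at 10 °C, on 1, 1 and 18 reads in kidney at 28, 18 and 10 °C and 135, 24 and 14 in spleen. The slopes, as log2 change from 28 to 10 °C, differed by 4.51 ± 0.84 (SE), with an adjusted p of 0.668 by limma. The smallest p towards spleen was that of ENSONIG00000021950 (201 bp), at 10.3, 4.96 and 0 in kidney and 0, 4.11 and 7.06 in spleen, from 8 and 7 reads in all.

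Between 28 and 10 °C, with 1 library a side and no test, few genes moved 2-fold in both organs. At 10 °C 565 genes were 2-fold higher and 1028 lower than at 28 °C in kidney, and 1383 higher and 1169 lower in spleen. The 89 genes higher in both were 15.8% of the kidney list, beside 13.5% of all tested genes higher in spleen. They were 6.44% of the spleen list, beside 5.50% of all tested genes higher in kidney. The 184 lower in both were 17.9% of the kidney list, beside 11.4% of all tested genes lower in spleen. They were 15.7% of the spleen list, beside 10.0% of all tested genes lower in kidney. In opposite directions, 72 of the 565 genes higher in kidney were lower in spleen, beside 11.4% of all tested genes lower in spleen. Of the 1028 lower in kidney, 140 were higher in spleen, beside 13.5% of all tested genes higher in spleen. Against 28 °C, 433 genes were 2-fold higher and 1220 lower at 18 °C in kidney, and 1047 higher and 921 lower in spleen. The 83 higher in both were 19.2% of the kidney list, beside 10.2% of all tested genes higher in spleen. They were 7.93% of the spleen list, beside 4.21% of all tested genes higher in kidney. The 207 lower in both were 17.0% of the kidney list, beside 8.96% of all tested genes lower in spleen. They were 22.5% of the spleen list, beside 11.9% of all tested genes lower in kidney. At 18 °C 24 of the 433 genes higher in kidney were lower in spleen, beside 8.96% of all tested genes lower in spleen. Of the 1220 lower in kidney, 81 were higher in spleen, beside 10.2% of all tested genes higher in spleen. Across the 10279 genes the changes in kidney and spleen had a Pearson's r of 0.08 from 28 to 10 °C and 0.15 from 28 to 18 °C, as a description over genes that share their libraries.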

How the data were processed

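RNA-seq of 21 Nile tilapia libraries was used, 1 for each of 7 tissues at 28, 18 and 10 °C. The authors deposited 1 RPKM value per Ensembl gene ID and library, per the file headers. The submitters' processing notes list TopHat, Bowtie and HTSeq. Versions, genome build and gene annotation were not given in the sources used here. Whole reads were recovered from the RPKM values, within 1e-06, for 100% of the values of 17094 genes; 4 genes were 0 in all libraries. RPKM was not rescaled. Linear models with a trended prior variance (limma 3.58.1, R 4.3.3) were run on log2(RPKM + 1), a scale that understates the change of low genes. The kidney and spleen model held tissue and temperature as a factor, with 2 residual degrees of freedom. The model of the pair against the mean of the other 5 tissues used all 21 libraries, with 12. The slope model held tissue, linear temperature and their interaction. Genes needed an RPKM of 1 or more in 3 of the 6 libraries. Two-sided p-values were adjusted by Benjamini-Hochberg over all tested genes, with a threshold of 0.05. The solver and the models were tested on simulated data. The files turned out to hold RPKM, so the test for normalized values was the main one and limma-voom on the recovered reads an alternative.

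Genes are named by a rule: the 2 highest and 2 lowest differences among called genes with an RPKM of 20 or more in the higher tissue and no overlap; for shared genes the 2 most abundant and the 2 highest and 2 lowest against the other 5 tissues; for slopes the smallest p in each direction; and ENSONIG00000002856 for its share of reads. The comparison, its members, lists and rules were chosen with earlier results of these data known. Cell type marker lists, given as symbols, were unusable because no ID matched the RefSeq table. Intervals and limits of a count of 0 cover counting error only.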

Additional observations from a re-analysis of the deposited data

How the results depend on the processing

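The count of 3537 genes between kidney and spleen stayed within 2982 and 3877 under other scalings, pseudocounts of 0.1 and 5, no filter, limma-voom on the recovered reads, removal of the length trend and a fit of all 21 libraries. It was 2528 to 3068 without 1 temperature pair, and 1145 when every one of the 6 libraries had to reach an RPKM of 1, where fewer genes were tested. Libraries of the same temperature deviated together only weakly, with correlations of 0.154, 0.057 and -0.001 at 28, 18 and 10 °C. Kidney and spleen libraries of unlike temperatures gave -0.144 to 0.124. Whether paired libraries share fish cannot be told from these values. Without the temperature block 3442 genes were called. The comparison with the other 5 tissues gave 1776 to 2748 genes instead of 2148, 1541 to 2090 without a kidney or spleen library, and 4937 with the filter set over all 21 libraries, where 15312 genes were tested and lower calls (2804) outnumbered higher ones (2133). The slope difference gave 0 genes under every alternative run. With a pseudocount of 5, the shares of genes 2-fold apart were 38.2, 39.3 and 35.9% at 28, 18 and 10 °C, and the 2-fold lists, an alternative chosen after seeing the data, held 665 kidney and 204 spleen genes. Without 1 pair the shared genes numbered 717 to 764, since fewer temperatures had to pass, and the 2-fold lists held 1670 to 1716 and 772 to 977 genes. Depth, a median of 10 to 40 reads on a detected gene, limits what can be said of low genes.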
